A study of Mus musculus with 18 samples.

Results

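In a set of 67 genes, levels with apoptotic cells lay on opposite sides of the control levels in bone marrow-derived macrophages (BMDMs) of C57BL/6 (B6) and SjSS mice. SjSS stands for C57BL/6.NOD-Aec1Aec2, a model of Sjögren's syndrome that carries the NOD mouse intervals Aec1 and Aec2 on the B6 background. The RNA-seq data hold 18 samples of BMDMs in 6 groups of 3, since each strain was either left untreated (control), exposed to apoptotic cells (ACs) or stimulated with CpG. All mice were female and 7 to 12 weeks old, and their marrow was cultured for 7 days in 20% L929 supernatant as the source of M-CSF, so every sample is a culture grown in M-CSF and not a tissue macrophage. ACs were thymocytes killed with dexamethasone, given at 5 per BMDM for 2 h, with 3 h more after the wash by the labels, and CpG was given at 1 µM for 6 h. Which strain's thymocytes each sample received is not stated in the sources used here. CpG samples thus differ from AC samples in time as well as in stimulus.

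The members were chosen from the AC and control samples. For each library, CPM is the gene's estimated count scaled to a common library total, and the AC to control ratio is that of the means of 3 samples with 0.1 added. A gene entered where this ratio was 1.4 or more in a strain and 0.71 or less in the other, with 2 CPM or more in at least 1 of the 4 group means. Of 20615 genes in the table, 11888 reached that level. The rule took 30 genes that were higher with ACs in SjSS BMDMs and lower in B6 BMDMs (0.252% of 11888) and 37 that were higher in B6 and lower in SjSS (0.311%), 0.564% in all, after 3 genes that it also took were left out by name. AC to control ratios of the members are therefore descriptions and carry no test.

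Macrophages clear dying cells by efferocytosis, in which bridging molecules and receptors bind phosphatidylserine on the dying cell and the cell is engulfed and digested. Uptake delivers lipid, nucleic acid and protein to the macrophage and normally goes with dampened inflammatory signaling. CpG oligonucleotides are DNA ligands of the endosomal receptor TLR9 and activate NF-κB and interferon pathways.

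Library totals ran from 30688336 to 57139662 estimated counts (median 47912525). Macrophage genes were present in every library: *Cd68* ran from 555 to 980 CPM, *Csf1r* from 1784 to 2777 and *Adgre1*, which encodes F4/80, from 1722 to 4385. The summed level of 24 T-lineage and thymocyte genes was 79.4 to 95.3 CPM in B6 control and 29.5 to 36.5 in B6 AC samples, against 76.0 to 93.0 and 38.5 to 42.2 in SjSS. Most of this sum was *Cd28*, with 11657 counts over the 3 B6 control and 3504 over the 3 B6 AC libraries, and 8469 and 3781 in SjSS. Some genes more particular to thymocytes had few counts and were higher with ACs than in control in B6, while other T-lineage genes were not. Of the first, *Cd8a* had 1 and 26, *Dntt* 0 and 18, *Bcl11b* 6 and 20 and *Tcf7* 30 and 68. In SjSS they had 12 and 10, 2 and 1, 7 and 13 and 24 and 48. Of the others, *Cd3e* had 9 and 6 in B6, *Cd2* 8 and 6, *Thy1* 21 and 20 and *Lat* 106 and 72. In SjSS these had 5 and 4, 1 and 2, 23 and 24 and 81 and 127. *Rag1*, which thymocytes use to rearrange their receptor genes, had 24 counts over the 3 B6 AC libraries, 3 over the 3 SjSS AC libraries and 0 over the controls of both strains. The part of RNA from other cells in the members' values was not tested, and no member was on this list or on any of the other 8 cell type lists. In such bulk samples, fewer cells of a type and less RNA per cell cannot be told apart.

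Over the 30 genes higher in SjSS, the AC to control ratio had a median of 0.561 in B6 (0.312 to 0.709) and 1.87 in SjSS (1.43 to 4.83), while over all 11888 genes the medians were 0.961 and 0.761. Over the 37 genes higher in B6, the medians were 1.55 (1.41 to 2.02) in B6 and 0.591 (0.178 to 0.708) in SjSS. The SjSS ratio divided by the B6 ratio, or its inverse, gives the distance between the strains: its median was 3.41-fold (2.32 to 14.5) for the first set and 2.66-fold (2.02 to 9.33) for the second. AC and control samples did not overlap in either strain for 29 of the 30 genes higher in SjSS and 28 of the 37 higher in B6, where 1.33% and 7.6% of all genes were separated in those directions. The rule used these samples, so nothing is read from those counts.

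**Figure D1:**
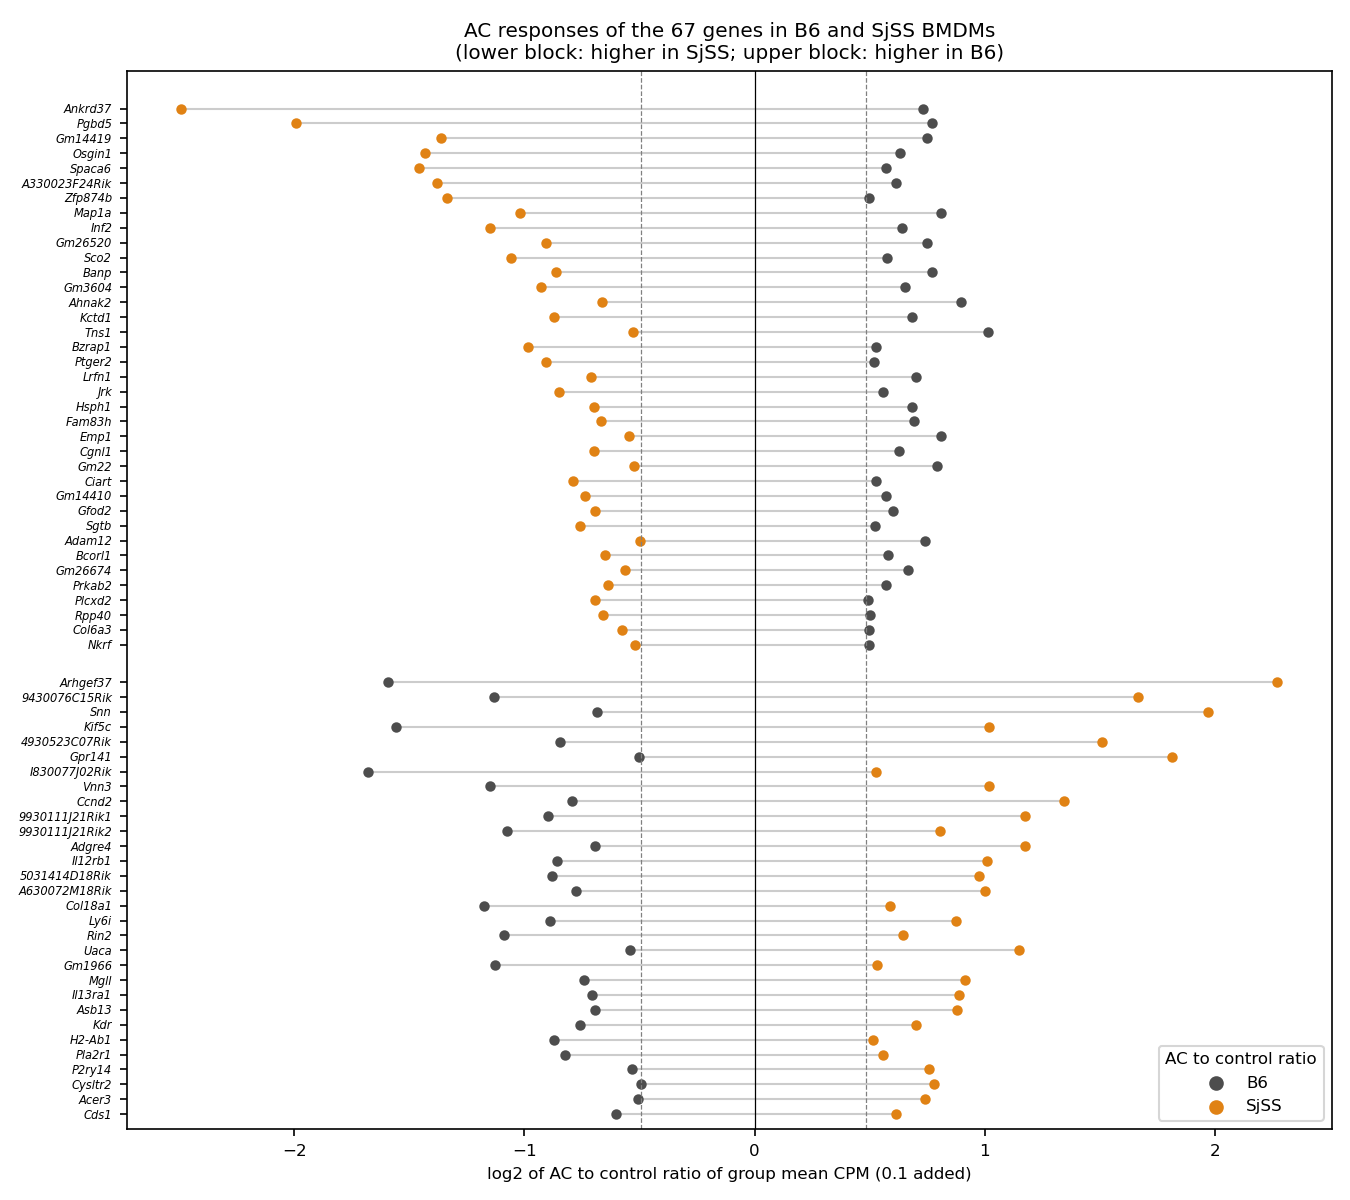
Log2 AC to control ratio of every member in B6 (grey) and SjSS (orange), sorted by the distance between them. Dashed lines are the ratios of 1.4 and 0.71, and each gene lies outside them on opposite sides, from Arhgef37 (0.332 in B6, 4.83 in SjSS) to Ankrd37 (1.66 and 0.178).

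The choice of scaling weighs differently on the 2 sets. With column totals, the median log2 AC to control ratio of all genes was -0.06 in B6 and -0.39 in SjSS, whereas with TMM, which sets the bulk of genes level, it was 0.01 and 0.02. Under TMM all 67 genes still lay above 1 in a strain and below 1 in the other. Of the 30 genes higher in SjSS, 25 still passed the rule, with median ratios of 0.590 in B6 and 2.47 in SjSS. Of the 37 genes higher in B6, 14 passed, with medians of 1.63 in B6 and 0.775 in SjSS, and the SjSS ratios ran from 0.230 to 0.934. Applied to all genes under TMM, the rule took 58 genes higher in SjSS and 21 higher in B6.

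**Figure D2:**
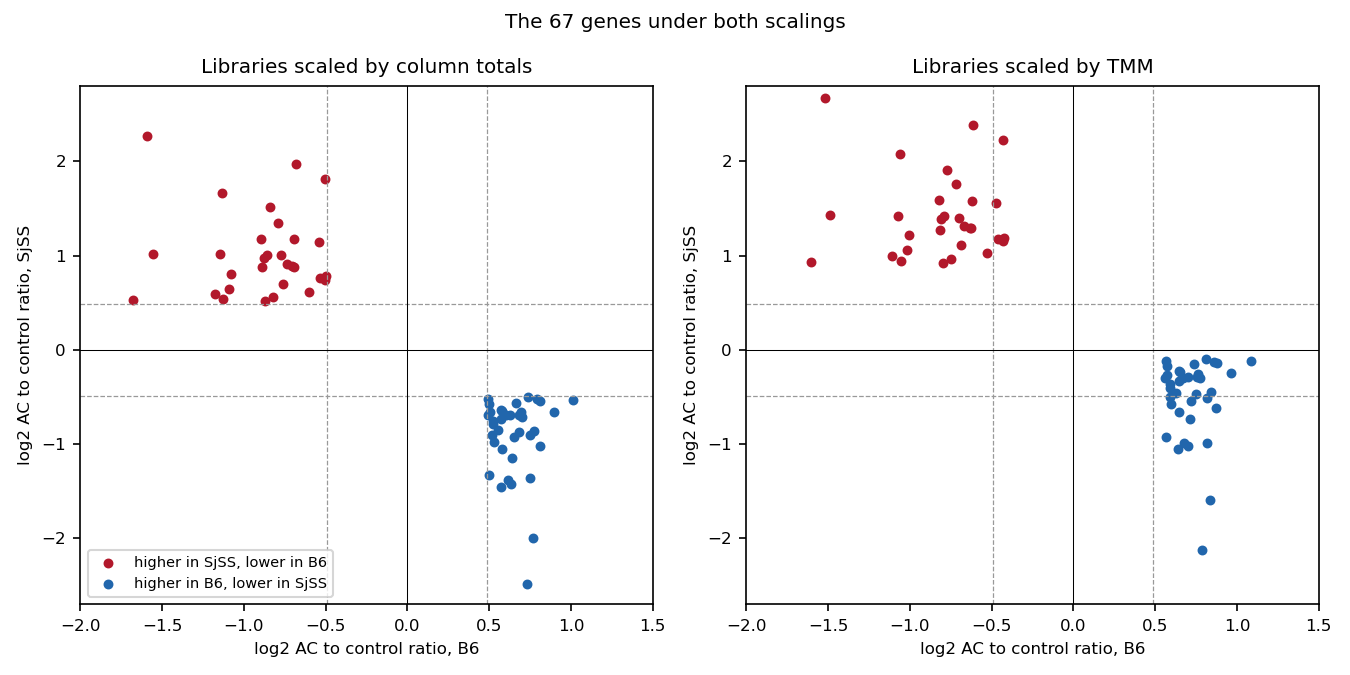
Log2 AC to control ratios of the 67 genes in B6 (horizontal) and SjSS (vertical), with libraries scaled by their totals (left) or by TMM (right). Under TMM every gene stays in its quadrant, and 23 of the 37 genes higher in B6 (blue) move past the dashed line at a ratio of 0.71 in SjSS.

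To read the ratios in samples the rule had not used, it was applied to 2 replicates of each group and the ratio was taken from the third. Of the genes so chosen as higher in SjSS, 29 of 32, 30 of 32 and 29 of 34 were again above 1 in SjSS and below 1 in B6 (90.6%, 93.8% and 85.3%). Among all genes 6.16%, 5.54% and 4.55% had that pattern in the same replicates. Of those chosen as higher in B6, 34 of 43, 36 of 40 and 49 of 58 kept the opposite signs (79.1%, 90.0% and 84.5%), beside 25.6%, 25.4% and 24.5% of all genes. The full ratios of the rule were met again by 20, 19 and 21 of the first kind (62.5%, 59.4% and 61.8%), beside 0.428%, 0.319% and 0.379% of all genes. Of the second kind 17, 18 and 12 met them again (39.5%, 45% and 20.7%), beside 0.746%, 0.815% and 0.514%. Each choice gave its own set of genes, which is not the set of members. The left-out samples belong to the same groups, so these shares describe how the chosen genes repeat between replicates. The chosen genes were picked for opposite ratios and all genes were not. The shares are therefore no test of the members.

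Among the genes higher with ACs in SjSS, *Arhgef37* had the widest distance. Its level was 1.52, 1.51 and 1.04 CPM in B6 control and 0.268, 0.425 and 0.456 in B6 AC samples, against 0.993, 1.04 and 1.25 and 5.97, 5.33 and 5.72 in SjSS. The control samples of the strains overlapped, and the AC samples were more than an order of magnitude apart in mean. *9430076C15Rik* is listed in RefSeq as *Creb5*, a transcription factor of the CRE-binding family. It had 70.1, 83.7 and 58.8 CPM in B6 control and 32.4, 30.3 and 34.1 in B6 AC samples, and 23, 23.8 and 18 and 71.3, 61.4 and 73.9 in SjSS. Here the strains traded places, with B6 above SjSS in controls and below it with ACs. *Kif5c*, a heavy chain of the motor kinesin, ran the other way in controls: it had 6.11, 6.46 and 5.25 CPM in B6 control and 1.98, 1.82 and 2.05 in B6 AC samples, and 8.59, 6.91 and 8.86 and 17.5, 15.3 and 16.7 in SjSS.

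**Figure D3:**
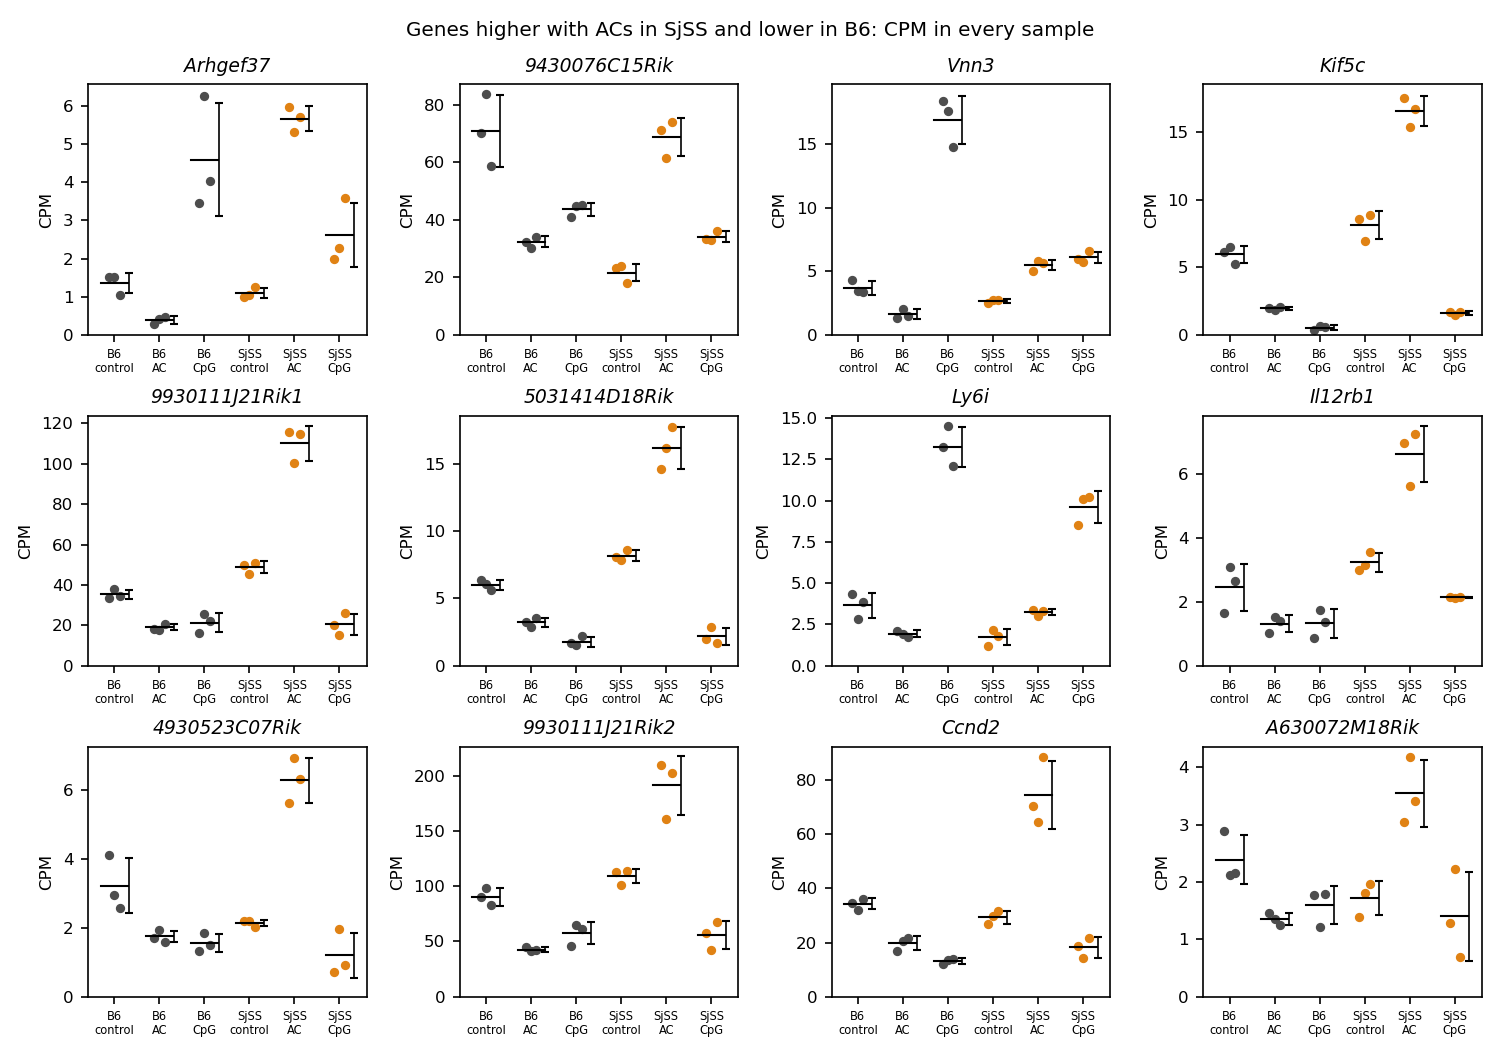
CPM in each of the 18 samples for the 12 genes higher in SjSS whose smaller log2 ratio was largest. Points are samples (B6 grey, SjSS orange), bars the means of 3 and error bars the SD. AC samples lie below control in B6 and above control in SjSS in every panel, and for Kif5c both CpG groups lie below all other groups of their strain.

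Genes of interferon-inducible GTPases were among those with the most counts. *9930111J21Rik1* and *9930111J21Rik2*, listed in RefSeq with the synonyms *Iigp* and *Irgb5*, lie 36.5 kb apart on chromosome 11 (chr11:48946150-48979399 and chr11:49015874-49051243 in mm10, both on the minus strand). These proteins take part in defence against vacuolar pathogens. *9930111J21Rik1* had 33.5, 37.9 and 34.6 CPM in B6 control and 18.4, 17.9 and 20.6 in B6 AC samples, and 49.9, 45.5 and 50.9 and 116, 100.2 and 115 in SjSS. *9930111J21Rik2* had 89.8, 98.1 and 82.7 and 44.8, 41 and 42.3 in B6, and 113, 101.5 and 113 and 209.8, 161 and 203 in SjSS. Of the stretches of read length in their transcripts, 70.4% and 48.2% also occur in another gene, mostly in each other, so their estimated counts are not independent and the split between them is uncertain. *Gm1966* had 40.9, 42.4 and 39.2 CPM in B6 control and 16, 20.4 and 19.5 in B6 AC samples, and 60.6, 49.6 and 64.1 and 89.7, 69.6 and 93.2 in SjSS. None of the 22 interferon-stimulated genes on a fixed list was a member. The median log2 AC to control ratio of those 22 was 2.65 in B6 and 4.91 in SjSS, so genes of this pathway were mostly higher with ACs in both strains.

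Promoters are printed for the members that hold a motif of the interferon-stimulated response element, here GAAA, any 2 bases and GAAA on either strand, because the genes above belong to an interferon-inducible family. The windows cover 250 bases before to 50 after the RefSeq start (GRCm38.p6, both on the minus strand), with the motif in capitals. The match starts 26 bases after the start of *9930111J21Rik1* (chr11:48979332-48979631) and 112 bases before that of *I830077J02Rik* (chr3:105932615-105932914).
9930111J21Rik1: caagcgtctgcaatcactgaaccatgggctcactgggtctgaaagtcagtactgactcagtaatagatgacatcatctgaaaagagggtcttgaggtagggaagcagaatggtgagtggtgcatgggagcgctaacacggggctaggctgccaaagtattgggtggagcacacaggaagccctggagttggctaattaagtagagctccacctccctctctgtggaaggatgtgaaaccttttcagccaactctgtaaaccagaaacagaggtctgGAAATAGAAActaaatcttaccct
I830077J02Rik: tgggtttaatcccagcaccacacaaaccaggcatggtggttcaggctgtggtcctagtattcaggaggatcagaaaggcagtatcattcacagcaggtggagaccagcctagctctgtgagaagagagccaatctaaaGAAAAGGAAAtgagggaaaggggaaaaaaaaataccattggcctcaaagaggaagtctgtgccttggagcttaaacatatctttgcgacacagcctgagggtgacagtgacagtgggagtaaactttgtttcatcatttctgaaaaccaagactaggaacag
These were 2 of 31 promoters of genes higher in SjSS (6.45%), against 0 of 29 of genes higher in B6 and 3.44% of all 32850 promoters. *I830077J02Rik* had the lowest B6 ratio of the 67, with 6.83, 6.53 and 6.83 CPM in B6 control and 1.77, 2.63 and 1.69 in B6 AC samples. In SjSS it had 5.21, 3.62 and 4.71 and 6.58, 6.33 and 6.75, a ratio of 1.44. A motif match is a description of letters and not a bound site, and the counts of promoters are small.

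Several genes higher in SjSS encode surface receptors, which were on no fixed list and are set together here by their known roles. *Gpr141*, an orphan G protein-coupled receptor, had 32.1, 26.9 and 21.1 CPM in B6 control and 21, 16 and 19.5 in B6 AC samples, and 13.7, 13.9 and 14.6 and 47.9, 47.7 and 53.1 in SjSS. Its B6 ratio of 0.705 lay just inside the threshold, and its highest AC and lowest control sample in B6 nearly met. *Il13ra1*, a chain of the interleukin-13 receptor, had 28.4, 23.6 and 21.4 and 15.6, 14.2 and 15.1 CPM in B6, and 13.3, 12 and 9.93 and 22.8, 23 and 19.8 in SjSS. *Il12rb1*, the chain shared by the receptors of interleukin-12 and interleukin-23, had ratios of 0.552 in B6 and 2.01 in SjSS. *Adgre4*, an adhesion receptor related to F4/80, had ratios of 0.618 in B6 and 2.26 in SjSS. *P2ry14*, a receptor for UDP-sugars, and *Cysltr2*, a receptor for cysteinyl leukotrienes, had ratios of 0.691 and 1.69 and of 0.709 and 1.72, B6 before SjSS. *Kdr*, the main VEGF receptor of endothelium, had ratios of 0.591 and 1.63, *Pla2r1*, the M-type phospholipase A2 receptor, of 0.566 and 1.47 and *Ly6i*, a GPI-anchored Ly6 protein, of 0.54 and 1.83. Symbols starting with Gpr or Adgr were 2 of the 30 members here (6.67%), 0 of the other set and 0.336% of all genes.

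*H2-Ab1*, the beta chain of the MHC class II molecule I-A that presents peptides to CD4+ T cells, was the member on the MHC class II list. It had 10.4, 12.1 and 13.6 CPM in B6 control and 5.53, 8.25 and 5.84 in B6 AC samples, and 15.4, 20.1 and 14.9 and 21.2, 28.3 and 22.6 in SjSS. Its partner *H2-Aa*, with *H2-Eb1* and the invariant chain *Cd74*, missed the SjSS threshold: their ratios were 0.337 and 1.35, 0.304 and 1.37 and 0.34 and 1.23, B6 before SjSS. *H2-DMa* and *H2-DMb1*, which load peptide on class II molecules, were lower with ACs in both strains, at 0.522 and 0.668 and 0.733 and 0.718. With column totals the class II list thus divided into 4 genes with opposite ratios and 2 with ratios below 1 in both strains. The SjSS ratios of these 2 stand beside a median of 0.761 over all genes with the same scaling. *Ciita*, the class II transactivator, was under the CPM minimum.

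The lists of lipid droplet genes, sterol synthesis and LXR targets held no member. *Vnn3*, of the vanin pantetheinases, had 4.32, 3.41 and 3.36 CPM in B6 control and 1.3, 2.03 and 1.51 in B6 AC samples, and 2.47, 2.74 and 2.71 and 5, 5.77 and 5.61 in SjSS. *Mgll* (monoacylglycerol lipase) had ratios of 0.599 and 1.88, *Acer3* (an alkaline ceramidase) of 0.705 and 1.67 and *Cds1* (CDP-diacylglycerol synthase) of 0.66 and 1.53. *Rin2*, an exchange factor for the endosomal GTPase Rab5, was the member with the most counts of its set, with 243, 256 and 238 CPM in B6 control and 119, 111 and 116 in B6 AC samples, and 217, 221 and 170.3 and 306, 322 and 323 in SjSS. Its SjSS samples did not overlap although the SjSS ratio was 1.56. *Ccnd2* (cyclin D2) had 34.8, 32.1 and 36.3 and 17, 20.7 and 21.8 CPM in B6, and 26.7, 29.7 and 31.6 and 70.4, 64.5 and 88.6 in SjSS. No gene of the 24 on the cell cycle list was a member. *Snn* (stannin) had ratios of 0.623 in B6 and 3.92 in SjSS, the second largest SjSS ratio after *Arhgef37*.

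The remaining genes of this set had the following ratios, B6 before SjSS. The autophagy gene *5031414D18Rik*, listed in RefSeq as *Rubcnl*, had 0.544 and 1.96. *Asb13*, of the SOCS box family, had 0.618 and 1.84, *Col18a1* (collagen XVIII) 0.443 and 1.5 and *Uaca* 0.687 and 2.22. *4930523C07Rik* had 0.557 and 2.85. *A630072M18Rik* had 0.585 and 2, but 95.0% of the read-length stretches of its transcript lie in *Rsbn1l* on the opposite strand, and reads of the pair cannot be told apart without strand.

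Among the genes higher with ACs in B6, *Hsph1*, which encodes a large chaperone of the Hsp110 family, was separated in both strains. Its level was 34.9, 36.3 and 35.9 CPM in B6 control and 58.9, 56.8 and 56.4 in B6 AC samples, against 50.2, 52.5 and 44.8 and 31.4, 29.4 and 30.1 in SjSS. SjSS lay above B6 in controls and below it with ACs. On the heat shock list of 8 genes it was the only member. The inducible Hsp70 genes *Hspa1a* and *Hspa1b* were higher with ACs in both strains, with ratios of 4.85 and 5.58 and 8.47 and 6.23, and *Dnajb1*, their co-chaperone, had 1.1 and 0.699.

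*Ankrd37*, a gene known to be induced in low oxygen, had the lowest SjSS ratio of the 67. It had 0.49, 1.26 and 1.1 CPM in B6 control and 2.14, 1.28 and 1.51 in B6 AC samples, and 2.59, 2.57 and 3.62 and 0.498, 0.596 and 0.224 in SjSS. Its counts were low, and 10.7% of the read-length stretches of its transcript lie in *Lrp2bp*. Among 16 hypoxia and glycolysis genes, *Egln3* (a prolyl hydroxylase of HIF) had ratios of 0.965 and 0.211, *Bnip3* of 1.03 and 0.519 and *Ldha* (lactate dehydrogenase) of 1.22 and 0.689, B6 before SjSS, and the list's median log2 ratio was 0.17 in B6 and -0.37 in SjSS, beside -0.06 and -0.39 over all genes.

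*Ciart*, a repressor within the circadian clock, had 1.03, 0.753 and 1.18 CPM in B6 control and 1.42, 0.966 and 2.01 in B6 AC samples, and 2.03, 2.51 and 1.87 and 0.995, 1.28 and 1.31 in SjSS. The B6 samples overlapped. Over the 14 of 16 clock genes with the CPM minimum, the median log2 ratio was -0.44 in B6 and -1.09 in SjSS. *Dbp*, a clock output gene, had ratios of 0.351 and 0.125.

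The E-box CACGTG, which clock and Myc-family factors can bind, was in 8 of 29 promoters of genes higher in B6 (27.6%), which belong to 6 genes, and in 3 of 31 of genes higher in SjSS (9.68%). It was in 7.15% of all promoters and 10.2% of those of genes with the CPM minimum. *Ciart*, *Hsph1* and *Inf2*, whose CPM is given here by sample, are printed as examples of the genes that hold it. *Ciart* (chr3:95882179-95882478, minus strand) has it 116, 58 and 44 bases before the start, *Hsph1* (chr5:149636287-149636586, minus strand) 2 bases after it and *Inf2* (chr12:112588517-112588816, plus strand) 46 bases before it, with the motif in capitals.
Ciart: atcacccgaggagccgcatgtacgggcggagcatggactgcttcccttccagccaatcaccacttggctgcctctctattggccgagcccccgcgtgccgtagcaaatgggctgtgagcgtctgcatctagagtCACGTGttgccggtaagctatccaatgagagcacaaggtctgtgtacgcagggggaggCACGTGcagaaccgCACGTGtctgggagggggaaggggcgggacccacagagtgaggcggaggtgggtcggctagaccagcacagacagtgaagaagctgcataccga
Hsph1: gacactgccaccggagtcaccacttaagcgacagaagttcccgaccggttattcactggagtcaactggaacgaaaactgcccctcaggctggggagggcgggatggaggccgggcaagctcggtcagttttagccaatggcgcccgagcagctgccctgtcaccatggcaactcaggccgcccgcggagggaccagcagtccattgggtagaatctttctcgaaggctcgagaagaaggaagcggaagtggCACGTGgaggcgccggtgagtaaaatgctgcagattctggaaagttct
Inf2: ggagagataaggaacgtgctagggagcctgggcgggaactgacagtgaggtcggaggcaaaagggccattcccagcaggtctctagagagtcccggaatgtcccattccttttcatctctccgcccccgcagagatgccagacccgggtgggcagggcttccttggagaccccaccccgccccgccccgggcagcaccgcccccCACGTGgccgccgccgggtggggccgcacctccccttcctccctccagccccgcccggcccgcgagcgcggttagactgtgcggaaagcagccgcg
*Bcorl1*, *Sco2* and *Sgtb* also held the motif. Promoters of 24 of the 30 genes higher in SjSS and 26 of the 37 higher in B6 were matched in RefSeq, and some genes have several starts that share bases, so promoters are not independent.

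Some genes higher in B6 encode proteins of the membrane, cytoskeleton, cell junctions or matrix, again set together by known role and not by a list. *Emp1*, a tetraspan membrane protein, had 144, 165 and 178 CPM in B6 control and 297, 260.3 and 295 in B6 AC samples, and 202, 237 and 145 and 127, 155 and 117 in SjSS. *Tns1* (tensin 1, at integrin adhesions) had 28.4, 37.5 and 36.3 and 68.8, 72.8 and 65.5 in B6, and 55.3, 54.9 and 51.6 and 38.9, 33.6 and 39.5 in SjSS. *Inf2*, a formin that builds actin filaments, had 58, 53.4 and 67.9 and 104, 89 and 86.6 in B6, and 82.6, 90.6 and 76.5 and 38.4, 36.9 and 37.1 in SjSS. In all 3 genes the B6 AC samples were above every B6 control. The SjSS AC samples were below every SjSS control for *Tns1* and *Inf2*, while for *Emp1* SjSS AC replicate 2 lay above SjSS control replicate 3. *Ahnak2*, 157 kb from *Inf2* on chromosome 12, had ratios of 1.86 in B6 and 0.632 in SjSS. *Map1a* (microtubule-associated) had ratios of 1.75 and 0.494, *Cgnl1* (paracingulin, at cell junctions) of 1.55 and 0.617, *Col6a3* (a collagen VI chain) of 1.41 and 0.67 and *Adam12* (a metalloprotease) of 1.67 and 0.708.

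Cells other than macrophages also make several of these proteins. The summed level of 5 fibroblast genes was 145, 46.3 and 112 CPM in B6 control, 119, 91.1 and 79.8 in B6 AC and 91.5, 36.3 and 85.4 in B6 CpG samples. In SjSS it was 180.1, 252 and 234, 155, 194 and 178 and 149.7, 200.03 and 179. The SjSS samples were higher in this sum in every condition. Most of it was *Col1a1* and *Col1a2*, up to 111 and 128 CPM. With ACs, *Col3a1* had 17.4, 13.4 and 10.4 CPM in B6 and 7.55, 10.8 and 8.71 in SjSS, *Pdgfra* overlapped between the strains and *Dcn* was at 0.911 CPM or less in every library. The B6 control replicate 2, lowest in this sum, was also lowest of its group for *Col6a3* and *Adam12*. The part of these cells in the ratios was not tested.

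**Figure D4:**
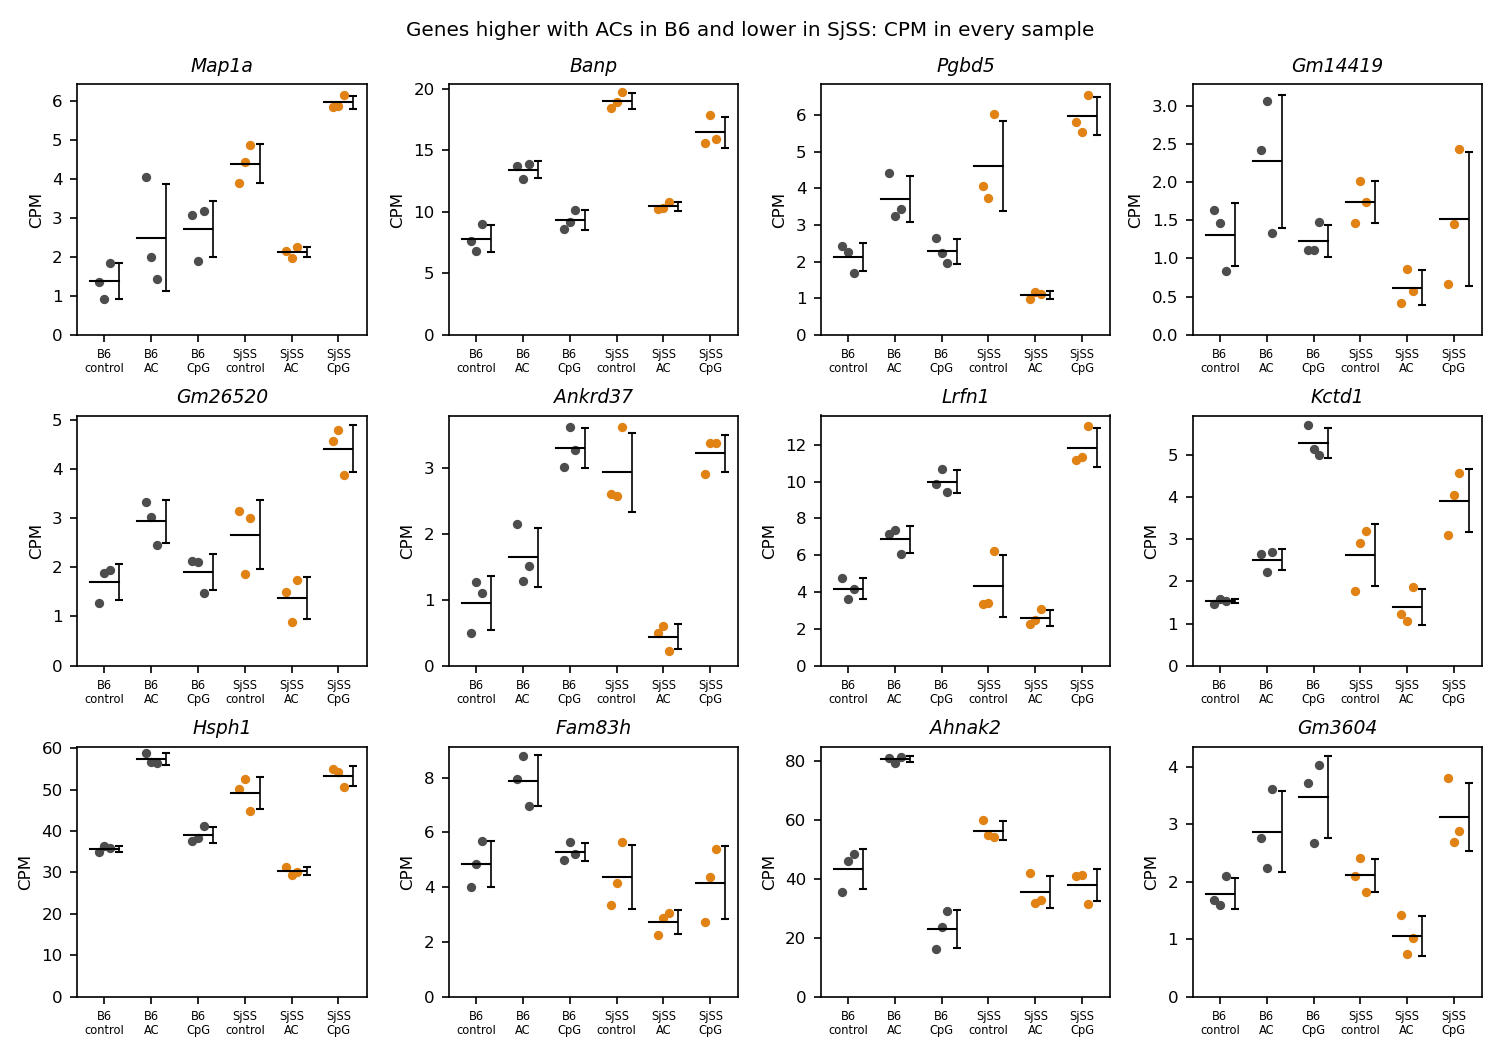
CPM in each of the 18 samples for the 12 genes higher in B6 whose smaller log2 ratio was largest. Points are samples (B6 grey, SjSS orange), bars the means of 3 and error bars the SD. Hsph1 and Banp are separated in both strains, while Map1a and Gm14419 have B6 samples that overlap.

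The lists of the unfolded protein response and of p53 targets held no member. *Osgin1*, a target of the oxidative stress factor Nrf2, had 50.6, 49.3 and 53.9 CPM in B6 control and 72.9, 85.5 and 79.9 in B6 AC samples, and 54.8, 67.2 and 39.2 and 19.3, 19.8 and 20.6 in SjSS. *Ptger2*, the EP2 receptor of prostaglandin E2, had 15.8, 18.9 and 20.0 and 25.1, 26.7 and 26.7 in B6, and 29.9, 30.3 and 26.4 and 15.3, 15.3 and 15.3 in SjSS. *Banp*, a nuclear DNA-binding protein, had 7.61, 6.84 and 9.01 and 13.7, 12.6 and 13.9 in B6, and 18.5, 18.9 and 19.7 and 10.2, 10.3 and 10.8 in SjSS. Each of these was separated in both strains. *Pgbd5*, derived from a transposase, had ratios of 1.7 and 0.251, *Kctd1* of 1.61 and 0.547, the co-repressor *Bcorl1* of 1.49 and 0.637 and *Nkrf*, a repressor of NF-κB targets, of 1.41 and 0.699. *Sco2* (copper delivery to cytochrome c oxidase) had 1.49 and 0.481, with 84.1% of its read-length stretches shared with neighbouring genes such as *Tymp*, and *Prkab2* (a beta subunit of AMPK) had 1.49 and 0.644.

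Of the remaining genes of this set, *Spaca6* had ratios of 1.49 and 0.364, *Bzrap1* of 1.44 and 0.505, *Lrfn1* of 1.62 and 0.61, *Fam83h* of 1.62 and 0.63 and *Rpp40*, a subunit of RNase P, of 1.42 and 0.633. *Plcxd2* had 1.41 and 0.618, *Gfod2* 1.52 and 0.618, *Jrk* 1.47 and 0.556, *Sgtb*, a co-chaperone, 1.44 and 0.591 and the zinc finger gene *Zfp874b* 1.41 and 0.397. *Gm22*, listed in RefSeq as *Zfp469*, had 1.73 and 0.696, *Gm26520* 1.68 and 0.533, *Gm3604* 1.57 and 0.525, *Gm26674* 1.59 and 0.677 and *A330023F24Rik* 1.53 and 0.385. *Gm14419* and *Gm14410*, a pair of zinc finger type genes 171 kb apart on chromosome 2, had 1.68 and 0.389 and 1.48 and 0.6, and 86.2% and 75.0% of their read-length stretches occur in other genes. Of this set 16 genes were under 5 CPM in all 4 group means, against 4 of the genes higher in SjSS, so counting error weighs more here.

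Close to the thresholds, *Cysltr2* (0.709 and 1.72, B6 before SjSS), *Gpr141* (0.705 and 3.51) and *Acer3* (0.705 and 1.67) were just inside and *Lrp4* (0.7104 and 1.73), *Smpdl3b* (0.713 and 1.94) and *Cacnb3* (0.718 and 1.49) just outside on the side of the genes higher in SjSS. On the other side *Adam12* (1.67 and 0.708), *Plcxd2* (1.41 and 0.618) and *Nkrf* (1.41 and 0.699) were just inside and *Tmem263* (1.3998 and 0.677), *Mfsd4b3* (1.3957 and 0.462) and *Trmt61a* (1.48 and 0.714) just outside.

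The control levels enter the rule and are given as a description. Of the genes higher with ACs in B6, 34 of 37 had a higher mean in SjSS than in B6 control samples, with 21 separated that way and 0 the other way. Of the genes higher with ACs in SjSS, 9 of 30 were separated with SjSS above B6 and 15 with SjSS below. Over all genes 23% were separated with SjSS above and 15.5% with SjSS below. With ACs all 30 genes of the first set had a higher mean in SjSS and all 37 of the second a higher mean in B6.

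The rule did not use the CpG samples, and the strain difference among them was tested. It did use the control samples, where 34 of the 37 genes higher with ACs in B6 had a higher mean in SjSS. A strain difference already there in controls can give a call with CpG, so no effect of CpG is read from these calls. Of the genes higher with ACs in B6, 14 of 37 were higher in SjSS than in B6 BMDMs with CpG and 0 were lower (edgeR quasi-likelihood test, adjusted p under 0.05, all 15789 tested genes adjusted together). Over all genes 10.2% were higher and 9.57% lower. The median log2 difference of the 37 was 0.44, beside 0.01 over all genes. The 14 had the direction of the control samples and not that of the AC samples. Those with the smallest p were *Tns1* (0.95 ± 0.10 SE, adjusted p = 2.08e-06), *Banp* (0.73 ± 0.09, adjusted p = 1.00e-05), *Ptger2* (1.01 ± 0.13, adjusted p = 2.98e-05) and *Pgbd5* (1.295 ± 0.19, adjusted p = 5.70e-05). *Ptger2* had 4.5, 6.15 and 7.39 CPM in B6 CpG samples and 12.9, 14.4 and 11.3 in SjSS CpG samples. *Hsph1* had 37.5, 38.3 and 41.2 and 55, 54.3 and 50.6, a log2 difference of 0.36 (adjusted p = 4.13e-04). Of the 8 with log2 differences below 0, the 4 smallest p belonged to *Kctd1* (-0.53, adjusted p = 0.0721), *Fam83h* (-0.43, adjusted p = 0.166), *Bcorl1* (-0.13, adjusted p = 0.317) and *Sgtb* (-0.18, adjusted p = 0.48). With an added minimum of 1.3 in log2 size, 0 of the 37 remained called. Of all 15789 genes, 287 higher and 125 lower remained, so few calls were left anywhere and nothing is read from the 0.

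Of the genes higher with ACs in SjSS, 4 of 30 were higher in SjSS with CpG and 8 were lower by the same test. Over all genes 10.2% were higher and 9.57% lower. The higher ones were *Kif5c* (1.54 ± 0.20 SE, adjusted p = 1.87e-05), *Col18a1* (1.05 ± 0.21, adjusted p = 0.00122), *P2ry14* (0.74 ± 0.16, adjusted p = 0.00283) and *Asb13* (0.50 ± 0.15, adjusted p = 0.0294). The lower ones were led by *Vnn3* (-1.57 ± 0.13, adjusted p = 1.72e-07), *Gpr141* (-0.87 ± 0.12, adjusted p = 2.90e-05), *Il13ra1* (-0.73 ± 0.11, adjusted p = 1.09e-04) and *Rin2* (-0.40 ± 0.08, adjusted p = 0.00182). *Vnn3* had 18.4, 17.6 and 14.8 CPM in B6 CpG and 5.95, 5.73 and 6.56 in SjSS CpG samples, so that SjSS lay below B6 with CpG and above it with ACs. *Gpr141* had 81.7, 71.6 and 72.1 and 46.8, 39.5 and 45.7, with the same reversal. For both genes SjSS lay below B6 in control samples too. Of the 30, 15 were separated that way in controls and 9 the other way, beside 15.5% and 23% of all genes. The remaining 4 lower genes were *Arhgef37*, *9430076C15Rik*, *Ly6i* and *Adgre4*. The calls of *Asb13*, *Arhgef37*, *Ly6i*, *Adgre4*, *Map1a*, *Plcxd2* and *Gm22* were lost when single CpG samples were left out.

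**Figure D5:**
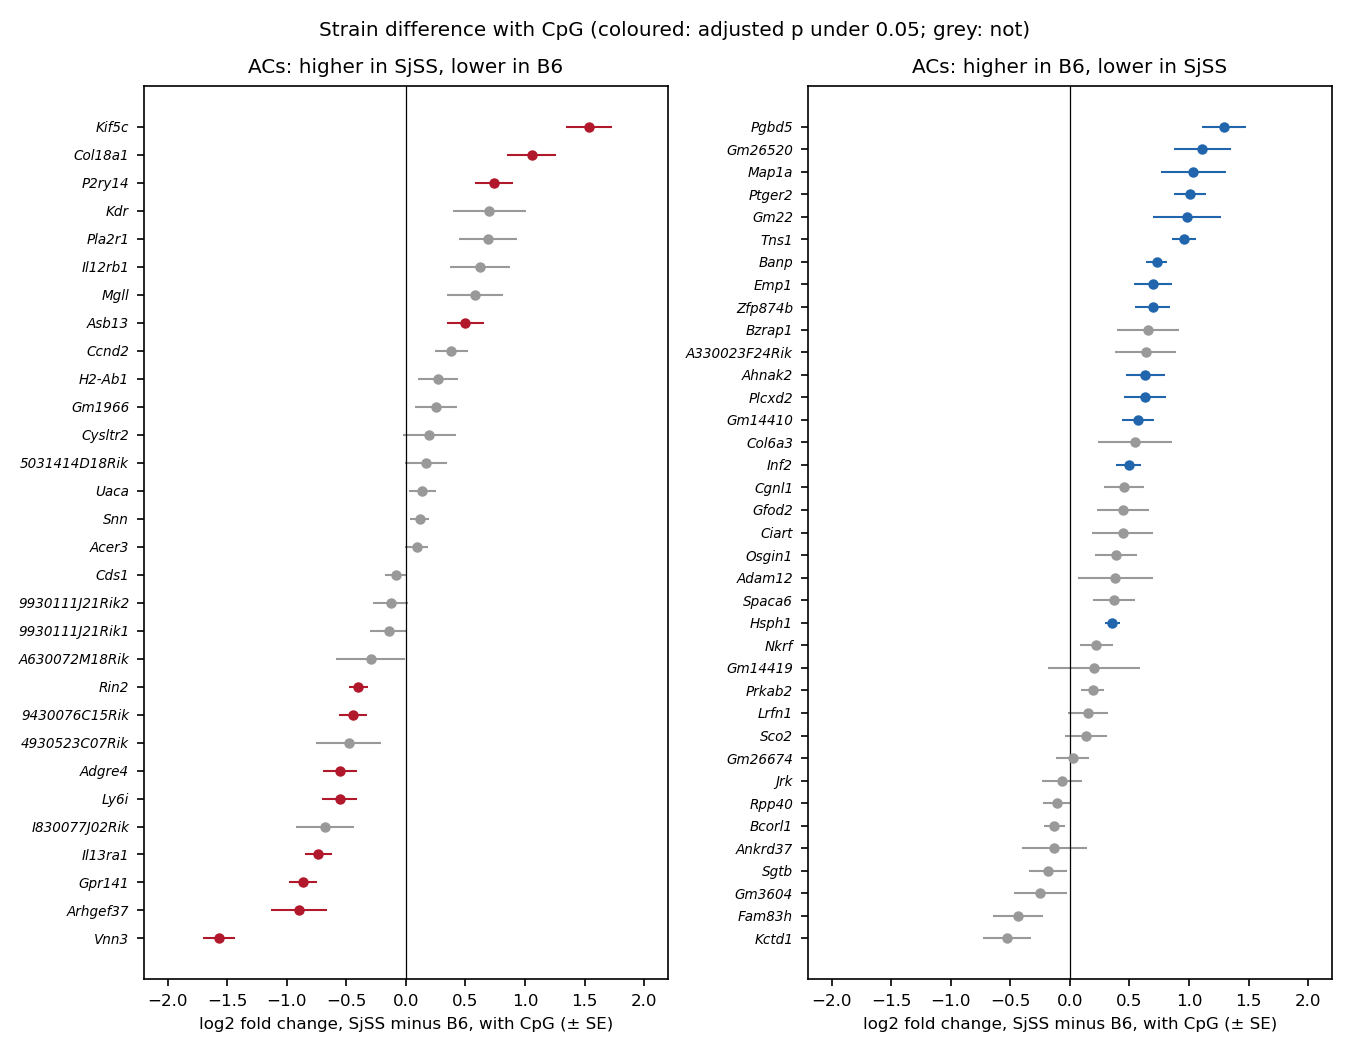
Log2 fold change between SjSS and B6 CpG samples (SjSS minus B6, with SE) for the 30 genes higher with ACs in SjSS (left) and the 37 higher in B6 (right). Coloured points passed an adjusted p of 0.05. On the right all 14 coloured points are above 0, and on the left 4 are above and 8 below. Over all genes 10.2% passed above 0 and 9.57% below.

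The CpG responses share the control libraries with the rule, so a control value that is off by chance enters both. Of the genes higher with ACs in SjSS, 6 rose and 19 fell with CpG in B6, and 8 rose and 15 fell in SjSS, where 28.1% of all genes rose and 29.8% fell in B6 and 27.8% and 26.4% in SjSS, 57.9% and 54.2% in either direction (edgeR, adjusted p under 0.05). The 6 that rose in both strains were *Adgre4*, *Arhgef37*, *Gpr141*, *Il13ra1*, *Ly6i* and *Vnn3*. In B6 these went up with CpG while they were lower with ACs. *Vnn3* rose by a log2 of 2.37 ± 0.14 SE in B6 and 1.34 ± 0.15 in SjSS, and *Ly6i* by 2.04 ± 0.16 and 2.64 ± 0.18. Another 15 fell in both strains, among them *Kif5c* (-3.33 in B6, -2.21 in SjSS), *9930111J21Rik1* (-0.55 and -1.12), *Gm1966* (-1.35 and -1.57), *Kdr* (-0.90 and -1.41) and *Ccnd2* (-1.20 and -0.55). In SjSS these went down with CpG while they were higher with ACs. *H2-Ab1* passed the test in neither strain (log2 of 0.28 in B6 and 0.11 in SjSS), and on the MHC class II list of 7 genes 3 fell in B6 and 2 in SjSS with none higher.

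Of the genes higher with ACs in B6, 13 rose and 9 fell with CpG in B6, and 12 rose and 11 fell in SjSS. Over all genes 28.1% rose and 29.8% fell in B6, and 27.8% and 26.4% in SjSS. How many of all genes were called in both strains was not counted, so nothing is read from such counts here and above. Members of this set that rose in both were 10, among them *Spaca6* (log2 of 1.72 in B6, 1.56 in SjSS), *Lrfn1* (1.43 and 1.57), *Bcorl1* (1.27 and 0.93) and *Hsph1* (0.31 and 0.24). The 9 that fell in both included *Emp1* (-2.04 and -1.57), *Osgin1* (-1.47 and -1.11), *Ptger2* (-1.43 and -1.04) and *Inf2* (-1.17 and -1.11). In *Emp1* the B6 level was 144, 165 and 178 CPM in control, 297, 260.3 and 295 in AC and 29.2, 35.7 and 39.5 in CpG samples, 3 ranges that did not overlap. Of the heat shock list all 8 genes rose with CpG in B6 and 7 in SjSS. Of 16 hypoxia and glycolysis genes 14 rose and 1 fell in B6, and 13 rose and 2 fell in SjSS. Of the 14 tested clock genes 3 rose and 7 fell in B6, and 1 rose and 6 fell in SjSS.

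The interaction of strain and CpG passed in 3 of 30 genes higher with ACs in SjSS and 3 of 37 higher in B6, beside 5.85% of all genes, 3.23% higher and 2.62% lower (edgeR, adjusted p under 0.05). With the replicate number as a block within strain it passed in 8 of 30 and 4 of 37, and in 784 genes higher and 667 lower of all 15789, against 510 and 413 without the block. *9430076C15Rik* was the only member whose CpG response passed in both strains with opposite signs. This gene fell with CpG in B6 (log2 of -0.52 ± 0.12 SE, adjusted p = 7.45e-04) and rose in SjSS (0.79 ± 0.12, adjusted p = 1.96e-05). It had 40.9, 44.9 and 45 CPM in B6 CpG and 33.1, 33 and 36.2 in SjSS CpG samples, so that with CpG, as with ACs, its level was lower in B6 and higher in SjSS than in control samples.

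Members were spread over the genome. The 30 genes higher in SjSS lay on 17 chromosomes and the 37 higher in B6 on 18, with 6 of the 37 on chromosome 8, which holds 5.53% of all genes with the CPM minimum. In the stretches of chromosomes 1 and 3 that include the NOD intervals, taken widely, there were 6 members: *Col6a3* and *Tns1* between 70 and 100 Mb of chromosome 1, and *Ciart*, *I830077J02Rik*, *P2ry14* and *Prkab2* between 30 and 110 Mb of chromosome 3. These stretches hold 1.24% and 3.36% of the genes. A further stretch of chromosome 1, from 165 to 180 Mb, holds 0.917% of the genes and 0 members. Sequence differences between the strains within them can change how reads align, which was not tested. Neighbours within 1 Mb in the same direction were *9930111J21Rik1* with *9930111J21Rik2*, *Inf2* with *Ahnak2*, *Gm14419* with *Gm14410* and *Banp* with *Gm22*, and neighbours in opposite directions were *Jrk* with *Ly6i* and *Il13ra1* with *Nkrf*.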

How the data were processed

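Gene expression of BMDMs was measured in 18 samples, and the groups were taken from the sample labels. The authors mapped reads to mm10 with STAR in Partek Flow and quantified them by Partek's E/M method. They deposited estimated counts without normalization for 20615 genes, and 41.1% of these were fractional (tolerance 1e-06). The E/M method shares out reads among similar genes, so genes with shared sequence are uncertain. Library totals were 30688336 to 57139662.

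CPM, ratios and thresholds followed the rule stated at the opening. The members, the gene lists and the tests were chosen with earlier results of these data known. The deposited estimated counts were rounded, filtered with filterByExpr (15789 genes, all 67 members among them), scaled by TMM and fitted with edgeR 4.0.16 (R 4.3.3, limma 3.58.1), 1 mean for each of 6 groups over 18 samples. P values were adjusted by Benjamini-Hochberg within each of 4 comparisons, and SE is the log2 fold change over the square root of F. DESeq2 1.42.0 was an alternative. On simulated counts for the strain difference under CpG, with 200 genes changed by a log2 of 2, 196 (98%) were recovered with 15 false calls among 15705 genes. The changed genes were drawn from those above a minimum of counts. Their change was larger than that of any member in this comparison (at most -1.57, *Vnn3*), so recovery of smaller changes was not tested. Python 3.11.15, pandas 2.3.3, numpy 2.4.6, scipy 1.17.1 and matplotlib 3.10.9 were used for the rest.

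Named genes were, in each direction, the 12 members whose smaller log2 ratio was largest, the 5 with the most CPM, the 4 with the smallest p of each sign for the strain difference under CpG, the 3 just inside and just outside the thresholds and every member on a pathway list (22 members higher in SjSS and 23 higher in B6). The other members, and genes that are no members, were named after their values were seen. Pathway lists without a member were interferon-stimulated genes, NF-κB targets, anti-inflammatory regulators, LXR targets, sterol synthesis, glucocorticoid-induced genes, phosphatidylserine recognition, cell cycle, immediate early factors, the unfolded protein response, p53 targets, lipid droplet genes and chemokine receptors.

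The study gives 3 mice for each strain. Whether equal replicate numbers mark a shared mouse is not stated in the sources used here. Deviations from the group mean correlated between same-numbered control and CpG samples at 0.53, 0.34 and 0.23 in B6 and at 0.48, 0.06 and 0.27 in SjSS. Between same-numbered control and AC samples they correlated at 0.37, 0.05 and -0.14 in B6 and at 0.32, 0.15 and 0.02 in SjSS. Pairing is therefore not settled, and the main fit held no term for it. The replicate number as a block was an alternative. No libraries were identical, and replicates differed beyond sampling noise (chi-square per degree of freedom of 8.11 or more). Promoters, RefSeq names and synonyms came from RefSeq for GRCm38.p6, whose coordinates match mm10, and coordinates of genes are those of the deposited table.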

Additional observations from a re-analysis of the deposited data

Results flagged for a closer look

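In 6 members the CpG response differed between the strains by the interaction term (edgeR, adjusted p under 0.05 over 15789 genes), and the value given is the SjSS response minus the B6 response on the log2 scale. It was 1.31 ± 0.17 SE for *9430076C15Rik* (adjusted p = 1.56e-04), 1.12 ± 0.24 for *Kif5c* (adjusted p = 0.00782) and -1.04 ± 0.20 for *Vnn3* (adjusted p = 0.0044), all higher with ACs in SjSS. It was -1.73 ± 0.40 for *Ankrd37* (adjusted p = 0.0151), -1.26 ± 0.30 for *Kctd1* (adjusted p = 0.0169) and -0.51 ± 0.12 for *Banp* (adjusted p = 0.0197), all higher with ACs in B6. These responses share the control libraries with the rule that chose the members. *Ankrd37* had 3.01, 3.61 and 3.27 CPM in B6 CpG and 2.9, 3.37 and 3.37 in SjSS CpG samples, which overlap, so its interaction rests on the control samples. *Kctd1* had 5.7, 5.14 and 5.01 and 3.1, 4.06 and 4.57, and *Banp* 8.62, 9.13 and 10.2 and 15.6, 17.9 and 15.9. On the list of 16 hypoxia and glycolysis genes, the interaction was called below 0 in 11, *Ankrd37* among them, and above 0 in 0. Over all genes 2.62% were called below 0 and 3.23% above. The calls of *Banp* and *Kctd1* were lost when single samples were left out (*Banp* without B6 control replicate 1 or 2 or SjSS CpG replicate 1, *Kctd1* without SjSS control replicate 3 or SjSS CpG replicate 1).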

How the results depend on the processing

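The count of genes the rule takes moved with scaling and thresholds. Higher in SjSS, it was 30 as reported, 58 with TMM, 61 with DESeq2 size factors, 55 with ratios of 1.3 and 0.77 and 4 with ratios of 2 and 0.5. Higher in B6, it was 37 as reported, 21 with TMM, 17 with DESeq2 size factors, 21 with 1 added to the means, 21 with a CPM minimum of 5, 17 with ratios of 1.5 and 0.67, 93 with ratios of 1.3 and 0.77 and 0 with ratios of 2 and 0.5. Leaving out each control or AC sample gave 29 to 34 genes higher in SjSS and 34 to 58 higher in B6, the 58 without B6 control replicate 3, and 19 of 30 and 11 of 37 members were taken in all 12 such runs.

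Members called in either direction were 12 and 14 for the strain difference under CpG (first the genes higher with ACs in SjSS, then those higher in B6), 25 and 22 for the CpG response in B6, 23 and 23 for that in SjSS and 3 and 3 for the interaction. Over all genes the shares called in either direction were 19.7%, 57.9%, 54.2% and 5.85%, in that order. Over all genes, a log2 fold change over 1.3 left 287 higher and 125 lower, 925 and 1086, 759 and 703, and 45 and 52. Of the members it left 2 and 0, 7 and 7, 10 and 3, and 1 and 1. Leaving out each sample gave 10 to 15 and 12 to 17 for the strain difference, 22 to 26 and 22 to 24 for B6, 20 to 22 and 18 to 21 for SjSS, and 3 to 5 and 1 to 3 for the interaction, with the 5 without B6 CpG replicate 1 and the 1 without SjSS CpG replicate 1. For the genes higher with ACs in SjSS, the interaction gave 5 with DESeq2 and 5 with no filter on low counts. DESeq2 called 600 genes higher and 767 lower for the interaction, against 510 and 413 by edgeR. No called member changed sign under any alternative.

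With the replicate number as a block, the interaction gave 5 genes higher with ACs in SjSS, and 8 with the block within strain, against 3 without it. The plain block gives equal numbers of both strains a shared term, although the strains are different mice. The block left all calls of the CpG response in B6, where same-numbered control and CpG samples correlated. Whether equal numbers mark a shared mouse is not stated. Of the control and CpG samples, 6 of 6 in B6 and 5 of 6 in SjSS correlated best with their own number, as a hint from the data.

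With promoters of genes that reach the CPM minimum as the comparison, the share with the motif was 10.2% for the E-box, 3.71% for AP-1, 3.14% for CRE, 6.87% for GAS, 0.329% for kB, 62.9% for the GC box and 6.82% for TATA, against 7.15%, 5.20%, 1.79%, 8.30%, 0.244%, 35.7% and 13.6% of all promoters. Of the 37 genes higher in B6, 16 lay under 5 CPM in all 4 groups, where counting error is larger.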

Other observations

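Other motifs were searched in the promoters of the members on both strands, with no test. AP-1 (TGACTCA or TGAGTCA) was in 5 of 31 promoters of genes higher with ACs in SjSS (16.1%), those of *9430076C15Rik*, *9930111J21Rik1*, *9930111J21Rik2*, *Acer3* and *P2ry14*, and in 2 of 29 of genes higher in B6 (6.90%), those of *Emp1* and *Osgin1*, against 5.20% of all promoters. The CRE (TGACGTCA) was in 3 of 31 (*9430076C15Rik*, *Cds1* and *Kif5c*) and 2 of 29 (*Nkrf* and *Zfp874b*), against 1.79%. The GC box (GGGCGG) was in 45.2% and 69.0%, against 35.7% of all promoters and 62.9% of those of genes with the CPM minimum.

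Names that end in Rik were 7 of the 30 genes higher in SjSS (23.3%) and 1 of the 37 higher in B6 (2.70%), beside 2.74% of all genes, and names of Gm followed by digits were 1 (3.33%) and 6 (16.2%), beside 6.85%. Many of these genes have little known function.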
